A study of Mus musculus with 2 samples.

Results

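Cited2, Brd2, Brd3, Ep300 and Crebbp encode coactivators that read histone acetylation, write it or bind its writers. Their transcripts were followed in osteoclast (OC)-induced bone marrow-derived monocytes (BMDMs) by single-cell mRNA sequencing (scRNA-Seq). Members were taken by gene symbol, and all 5 were found once each among the 32544 genes of the gene table. The BMDMs came from femurs of mice aged 4 to 6 weeks, per the study's methods, and were kept for 1 day with RANKL at 100 ng/ml in the presence of M-CSF at 50 ng/ml. A library labelled control, without further genotype, stood against a library of LysM-Cre;Arid1afl/fl cells, called mutant below. LysM-Cre is a recombinase driven by the lysozyme M promoter in myeloid cells, where it deletes a part of Arid1a. ARID1A is the large DNA-binding component of BAF, an ATP-driven nucleosome remodeler. With 1 library per group there is no replicate check, and every interval in parentheses is a 95% interval for counting error only. It was not stated how many animals each library came from.

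CITED2 is a small nuclear protein without a DNA-binding domain of its own. It binds the CH1 domain of CBP (the product of Crebbp) and p300 (the product of Ep300), the same surface that the hypoxia factor HIF-1α uses, and can thereby keep HIF-1α off its coactivator. CBP and p300 are paired lysine acetyltransferases that acetylate histones at enhancers and join many transcription factors. BRD2 and BRD3 belong to the bromodomain and extra-terminal (BET) family, which binds acetylated histone tails and helps RNA polymerase II into elongation. RANKL turns monocytes into OCs through NFATc1, a switch in which proliferation gives way to OC genes such as Ctsk, Mmp9 and Dcstamp.

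Cited2 (ENSMUSG00000039910) is a short gene on the plus strand of chromosome 10, from 17598966 to 17601792 (GRCm39). Its promoter is shown because it is the member whose level differed most between cell states, and because Cited2 is itself known as a gene induced by hypoxia. The 250 bases before its RefSeq start, chr10:17598726-17598975 on the plus strand of GRCm39, were read from a RefSeq promoter table (GRCm38.p6) and matched to GRCm39 without a mismatch. The last 10 of them lie inside the GENCODE gene.

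Cited2 promoter, 5′ to 3′: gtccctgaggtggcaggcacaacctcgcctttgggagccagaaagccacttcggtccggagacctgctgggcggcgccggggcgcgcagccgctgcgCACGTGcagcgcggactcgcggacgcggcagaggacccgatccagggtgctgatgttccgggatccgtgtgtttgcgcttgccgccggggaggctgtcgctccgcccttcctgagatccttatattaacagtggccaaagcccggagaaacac

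The capitals mark CACGTG, which begins 153 bases before the start. This palindrome is an E-box and holds the HIF core ACGTG on both strands, which overlap in it. Over 32841 promoter windows of the same length, 16.6% held ACGTG and 6.02% held CACGTG, so a match of this kind is common. AP-1 (TGANTCA), the cAMP response element (TGACGTCA), the NFAT core (GGAAA) and the CCAAT box (CCAAT), searched on both strands, had no match in this window. Of the other members only Brd3 held any of the 6 motifs, with 1 GGAAA, which 55.6% of windows held. The windows of Ep300, Crebbp and the 3 listed starts of Brd2 held none.

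Brd2 (ENSMUSG00000024335) is encoded on the minus strand of chromosome 17 (34330996 to 34341745). It overlaps H2-DMa, a class II antigen-processing gene, on the opposite strand over 3231 bases, which do not include its 3′ end, where the reads of this kit fall. Brd3 (ENSMUSG00000026918) is on the minus strand of chromosome 2 (27335587 to 27397674). Ep300 (ENSMUSG00000055024) is on the plus strand of chromosome 15 (81469540 to 81537206), and Crebbp (ENSMUSG00000022521) on the minus strand of chromosome 16 (3899192 to 4031861).

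Cells with at least 500 genes and at most 10% mitochondrial unique molecular identifiers (UMIs, 1 per captured mRNA molecule) were kept, which gave 6269 control cells with a median of 23978 UMIs and 5663 mutant cells with a median of 21734 UMIs. Arid1a, read outside the deleted part by this 3′ kit, was at 51.9 CPM (UMIs of a gene per 1000000 UMIs of its cells) in control and 20.4 CPM in mutant cells, a level that does not by itself check the deletion. The labelled cell type was carried by the cells, since 99.6% of control and 97.8% of mutant cells fell outside neutrophil, stromal and class II marker gates, and these cells held 11831 and 7655 CPM of 6 monocytic markers (Lgmn, Dab2, Csf1r, BC005537, Lyz2 and Adgre1). Both libraries shared 8 cell barcodes (0.124% of the control and 0.136% of the mutant barcodes).

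So that states were called alike, every cell was thinned to 5000 UMIs, which left out 168 control and 351 mutant cells. A cell was called OC-transcript none with 0 UMIs over Ctsk, Mmp9 and Dcstamp, low with 1 or 2, and high with 3 or more. In the high state were 374 of the 6101 cells of the control library (6.13%, 5.54 to 6.76%) and 57 of the 5312 cells of the mutant library (1.07%, 0.814 to 1.39%). The low state held 915 (15.0%) and 310 (5.84%). Cells with 3 or more UMIs summed over the proliferation genes Aurka, Cdk1, Mki67 and Top2a were called cycling, which held for 2423 control cells (39.7%) and 1782 mutant cells (33.5%). Over all control and all mutant cells, Mki67 had 178 and 104 CPM, Aurka 41.1 and 35.9 CPM, Top2a 261 and 277 CPM and Cdk1 109 and 118 CPM. The part of Mki67 alone in the lower share was not tested. As a background, neutrophil-gate cells should lack Ctsk and Dcstamp. A UMI of either was seen in 0 of 17 such control cells, which allows up to 17.6% (3 counts of 17 cells; the exact upper bound is 19.5%), and in 1 of 75 mutant cells (1.33%, 0.0338 to 7.21%), at medians of 8616 and 10828 UMIs. Outside the gates the shares were 13.1% (12.3 to 14.0%) and 5.96% (5.33 to 6.63%), at medians of 24300.5 and 22549 UMIs. The mutant share outside the gates therefore lay within the interval of its background. Mmp9 was not part of this check, which is thus no background of the state itself. Gated cells stayed in the states unless stated. Levels of the members in a state use all UMIs of its cells. On all UMIs, none cells still held Ctsk at 9.14 CPM in control and 6.64 CPM in mutant cells. Mmp9 stood at 12.2 and 1.17 CPM and Dcstamp at 3.74 and 1.15 CPM in them. The part of this remainder in the levels of the members was not tested.

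Over all cells, the members did not move as a group between the libraries. Ep300 was the member with the largest difference, higher in the mutant library. Brd2 was lower, Cited2 slightly higher, and Brd3 and Crebbp were close to equal. Only Ep300 was past a fold of 0.32 on the log2 scale, called the fold below, and no member was past it in the lower direction. Of 5219 genes that averaged 20 CPM or more, 41.5% were past the fold, 24.0% higher and 17.5% lower in the mutant library, with a median log2 ratio of 0.022. When mitochondrial and ribosomal protein genes were not counted in the totals, that median moved by -0.11 and the split became 18.1% higher and 26.0% lower. The 1 of 5 members past the fold is thus below the background share.

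**Figure D1:**
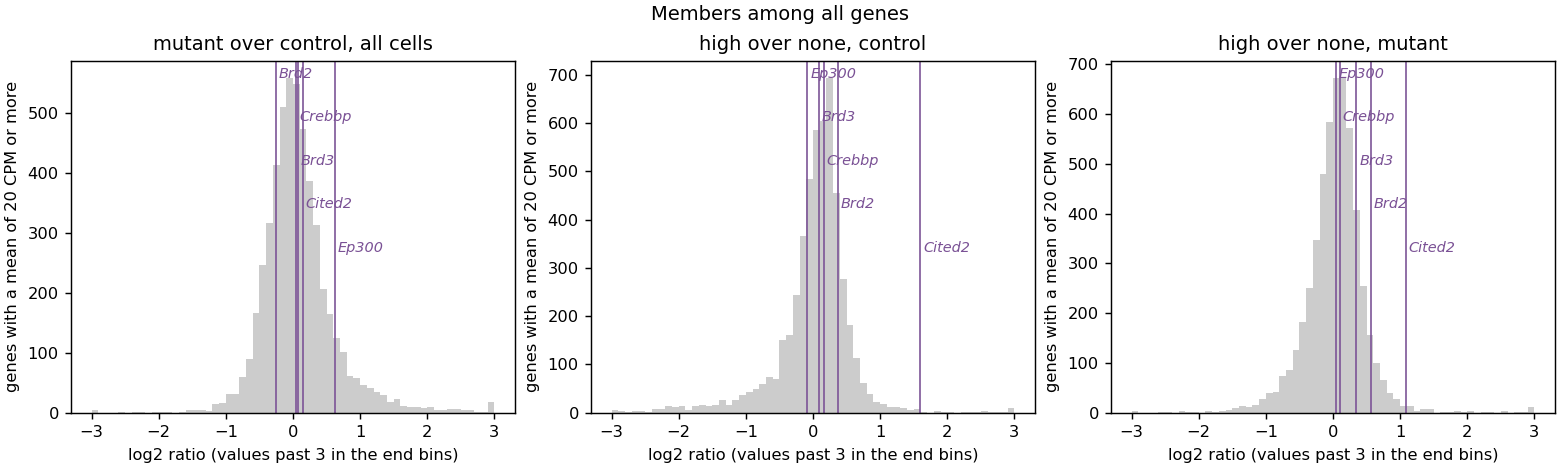
Histograms of the log2 ratio of all genes with a mean of 20 CPM or more (bins of 0.1, number of genes on the y axis) for mutant over control in all cells and for OC-transcript-high over none cells in each library, with the 5 members as vertical lines. Ep300 (0.63) lies to the right of 88.6% of genes between the libraries, and Cited2 lies at 1.60 and 1.09 in the right tail of the 2 state comparisons.

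Cited2 had 102 CPM (101 to 104) in control and 113 CPM (112 to 115) in mutant cells, and mutant over control was 0.15 on the log2 scale (0.12 to 0.18). This ratio joined states that went in different directions. OC-transcript-none cells held 83.4 CPM (81.8 to 85.0) in control and 113 CPM (111 to 115) in mutant cells, which is 0.43 as a log2 ratio (0.40 to 0.47). OC-transcript-low cells held 129 CPM (125 to 134) and 101 CPM (94.2 to 108), a log2 ratio of -0.36 (-0.47 to -0.25). OC-transcript-high cells held 252 CPM (243 to 262) and 240.1 CPM (217 to 265), a log2 ratio of -0.072 (-0.23 to 0.082) whose interval includes 0. Cited2 was past the fold higher in mutant none cells, as were 23.4% of genes, and past it lower in mutant low cells, as were 23.5%. Control was therefore lower in none cells, higher in low cells and not distinguishable from mutant in high cells. The shares of the states differed as well. With mutant levels weighted by the control shares of 6 states (3 OC-transcript states, each split into cycling and not cycling), the log2 ratio over control was 0.22 in place of 0.15. Control levels weighted by the mutant shares gave a log2 difference from control of -0.20.

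**Figure D2:**
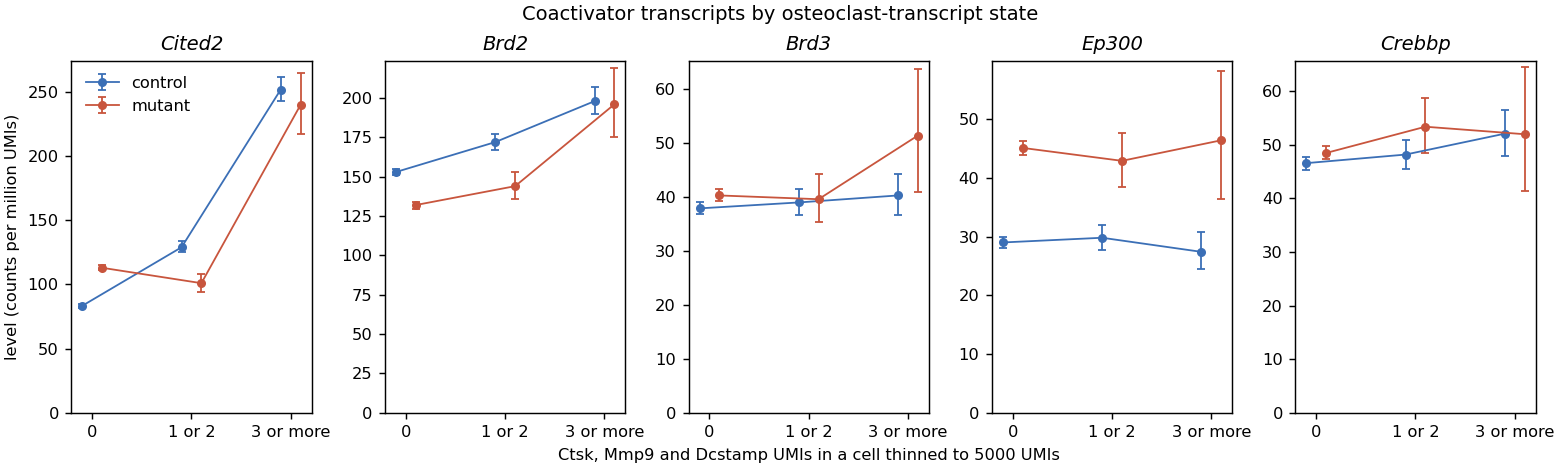
Level of each member (y axis, CPM from 0, scale differs by panel) against the number of Ctsk, Mmp9 and Dcstamp UMIs in a cell thinned to 5000 UMIs (x axis), for the control and mutant library. Bars are 95% Poisson intervals. Cited2 goes from 83.4 to 252 CPM in the control library and from 113 through 101 to 240.1 CPM in the mutant library. Ep300 runs parallel at 2 heights.

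Cited2 was higher in high than in none cells of both libraries, and by more in the control library. High over none cells gave a log2 ratio of 1.60 (1.54 to 1.66) in the control and 1.09 (0.94 to 1.24) in the mutant library, a difference of -0.51 (-0.67 to -0.35). These ratios lay above those of 99.4% and 98.8% of genes. Past the fold higher in this comparison were 22.5% of control genes and 19.1% of mutant genes (38.3% and 34.7% in either direction). Among the members these were Cited2 and Brd2 in the control library and Cited2, Brd2 and Brd3 in the mutant library. The mutant Brd3 ratio, 0.35 (0.017 to 0.67) from 82 UMIs in high cells, was 0.0086 with states called on unthinned UMIs. For Brd3 it was -0.016 (-0.56 to 0.48) in cycling cells alone and 0.61 (0.17 to 1.02) in the other cells. In cycling cells alone the Cited2 ratio was 1.37 (1.26 to 1.47) and 0.98 (0.73 to 1.21), and in the other cells 1.74 (1.66 to 1.81) and 1.21 (1.01 to 1.39). Its size moved with how deeply the states were called, since on unthinned UMIs it was 1.08 and 0.35, and at 2000 UMIs 1.72 and 1.41. Removing doublets left it at 1.65 and 1.14.

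Between none and low cells the libraries went opposite ways. Low over none gave 0.63 (0.58 to 0.69) in the control library, above 99.4% of genes, and -0.16 (-0.26 to -0.054) in the mutant library, a difference of -0.79 (-0.91 to -0.67). Only 2.92% of control genes were past the fold higher here (8.17% in either direction), and Cited2 was the 1 member among them. No member passed in the mutant library (4.67% of genes in either direction). This contrast depends on the depth at which the states were called. At 2000 UMIs the mutant ratio was 0.29, and the mutant over control ratio within low cells was 0.048 at 10000 UMIs and 0.32 on unthinned UMIs, in place of -0.36. Low cells of the libraries also differed in OC genes, including Mmp9 and Ctsk, by which the state was called. Nfatc1, the OC master transcription factor, had 83.6 CPM in control and 35.1 CPM in mutant low cells, Mmp9 104 and 24.1 CPM, and Acp5, the tartrate-resistant phosphatase, 165 and 119 CPM. Ctsk had 75.8 and 103 CPM. In none cells Acp5 went the other way, with 31.2 CPM in control and 58.4 CPM in mutant cells. The part of these differences, and of free RNA, in the Cited2 result was not tested.

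Counted UMI by UMI, Cited2 in the control library stood at 83.4 CPM with 0, 121 with 1, 152 with 2, 209 with 3 or 4 and 284 CPM (271 to 297) with 5 or more OC-transcript UMIs. Each step up was outside the interval of the step before. The mutant library had 113, 99.4, 108, 199 and 319 CPM (274 to 371), the last in 19 cells, so that levels above that at 0 UMIs began at 3 or 4 UMIs. At both of these upper steps the intervals of the libraries overlapped. The split by single UMIs was chosen after the data were seen, as were the splits by Nfatc1, Arid1a, depth and, within none cells, interferon-stimulated UMIs.

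**Figure D3:**
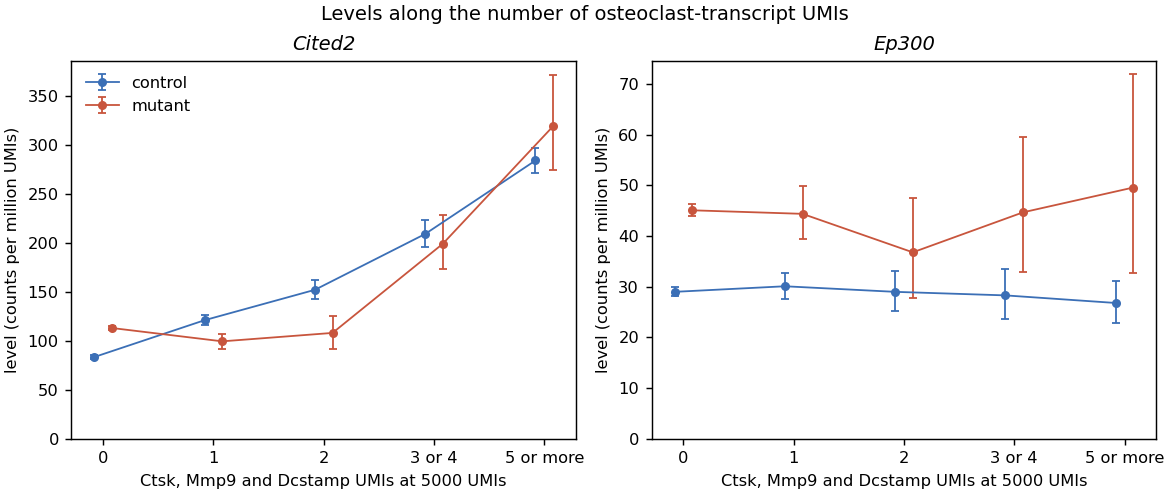
Level of Cited2 and Ep300 (y axis, CPM from 0) in cells with 0, 1, 2, 3 or 4, and 5 or more Ctsk, Mmp9 and Dcstamp UMIs at 5000 UMIs (x axis) in each library, with 95% Poisson intervals. Cited2 steps from 83.4 to 284 CPM in control cells and stands at 113, 99.4 and 108 CPM in mutant cells with 0, 1 and 2 UMIs, whereas Ep300 has no such slope in either library.

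Nfatc1 gave a similar picture among cells without OC transcripts. Control none cells with an Nfatc1 UMI (574 cells) held 114 CPM of Cited2 (109 to 119.6) and those without one (4238 cells) 79.1 CPM (77.5 to 80.8), a log2 ratio of 0.53 (0.45 to 0.60). Mutant none cells held 115 and 112 CPM, a log2 ratio of 0.033 (-0.04 to 0.11). Where Nfatc1 was seen, the libraries were thus within counting error of each other (0.011, -0.086 to 0.11), and the higher mutant level was in cells where it was not seen (0.51, 0.47 to 0.55).

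In single cells thinned to 5000 UMIs, a Cited2 UMI was seen in 34.5% (33.3 to 35.7%) of the control and 38.9% (37.6 to 40.3%) of the mutant cells, against 76.4% and 79.3% unthinned. Among high cells the thinned shares were 58.0% (52.8 to 63.1%) and 45.6% (32.4 to 59.3%). At least 3 UMIs were held by 16.8% of control and 19.3% of mutant high cells, against 1.93% and 3.54% of none cells. The most Cited2 UMIs in 1 control cell were 11 in the high and 9 in the none state. In the mutant library Cited2 reached 6 in the high and 12 in the none state. Its counts were spread more widely than those of the other members, with a variance over mean of 1.52 and 1.41 in all cells and 1.97 and 2.08 in high cells, while Ep300, Brd3 and Crebbp stayed between 1.00 and 1.04 over all cells. No cell group here is known to lack Cited2, so its free RNA background was not measured. Neutrophil-gate cells, few in number, held 205 CPM (146 to 281) in 19 control cells and 257 CPM (228 to 288) in 89 mutant cells, and leaving out all gated cells kept the direction of each Cited2 ratio between states and between libraries that was recomputed.

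Cited2 was lower in cycling cells, with 90.7 CPM (88.5 to 92.9) against 111 CPM (109 to 113) in control cells, and 102 CPM (99.6 to 105) against 120.0 CPM (118 to 122) in mutant cells. The log2 ratios of cycling over other cells, -0.29 (-0.34 to -0.25) and -0.23 (-0.28 to -0.18), differed by 0.064 (-0.0027 to 0.13). Only 3% of control genes and 7.21% of mutant genes had lower ratios, although neither ratio was past the fold. The highest levels of the 6 states were in high cells that did not cycle, with 295 CPM (282 to 309) in control and 276 CPM (242 to 313) in mutant cells, against 198 and 199 CPM in high cells that cycled. The lowest were 76.8 CPM in cycling none cells of the control library and 98.5 CPM in cycling low cells of the mutant library. In the control library no neighbours in the order of the 6 states had overlapping intervals, whereas 2 of 5 neighbouring pairs did in the mutant library. Low states, part of each overlapping pair, held 102 cycling and 208 other mutant cells, against 365 and 550 control cells. The intervals take UMIs as independent and do not cover the spread of Cited2 between cells. Split by 20 S-phase and 20 G2/M genes instead, the lower level belonged to G2/M-high cells, at 81.7 and 101 CPM against 109 and 119.7 CPM in cells high in neither list (log2 ratios of -0.41 and -0.25). S-high cells had 114 and 112 CPM.

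The group of 30 interferon-stimulated genes, all higher in the mutant library with a median log2 ratio of 1.77, was used to split each library into 3 parts of equal cell number (terciles). Cited2 had 123, 97.6 and 84.8 CPM from the lowest to the highest tercile of the control library (highest over lowest -0.54, -0.59 to -0.48) and 111, 112 and 117 CPM in the mutant library (0.076, 0.019 to 0.13). The share of high cells moved with the control terciles, at 11.0%, 4.57% and 2.85%. Within none cells, where no OC transcript was seen, the ratio was -0.22 (-0.29 to -0.15) in the control and 0.11 (0.052 to 0.17) in the mutant library. The terciles cover different UMI ranges, 0 to 240 in the control and 1 to 313 in the mutant library, and are no matched groups. By depth, Cited2 had 92.1 CPM in the shallowest and 103 CPM in the deepest control tercile (0.16, 0.10 to 0.22), against 124 and 108 CPM in the mutant library (-0.20, -0.26 to -0.14). In mutant cells with an Arid1a UMI it was higher than in those without one (128 and 112 CPM, log2 ratio 0.19, 0.12 to 0.27), while control cells had 100.2 and 103 CPM (-0.037, -0.09 to 0.016).

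Over the 12 points made by 2 libraries and 6 states, the genes whose log2 level was most like that of Cited2 among 4175 genes were Mitf (r = 0.968), Edem1 (0.951), Cox7a2 (0.948), Dyrk2 (0.945) and Rreb1 (0.938). Mitf encodes a transcription factor of the OC and melanocyte lineages and had 28.1 to 82.1 CPM over these points. Within the 6 control points its r was 0.989 and within the 6 mutant points 0.978. Edem1 acts in the disposal of misfolded glycoproteins, Cox7a2 is a subunit of cytochrome c oxidase, Dyrk2 is a kinase and Rreb1 a zinc finger transcription factor. The points of a library share 1 preparation, so these values are a description. Of the other members, Brd2 was most like Cited2 (r = 0.668), while Ep300 (-0.0786) and Crebbp (0.0686) had patterns of their own. The related genes Cited1 and Cited4 had 0.0183 and 0.0306 CPM in the control and 0.0456 and 0.0228 CPM in the mutant library, so that of these 3 genes Cited2 was the 1 above 20 CPM.

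The acetyltransferase gene Ep300 was higher in the mutant library in each of the states, with 1 interval that included 0. It had 29.1 CPM (28.2 to 29.9) in control and 45.1 CPM (44.0 to 46.3) in mutant cells, and its log2 ratio of 0.63 (0.58 to 0.69) lay above that of 88.6% of genes. None cells had 29.0 and 45.1 CPM (0.64, 0.57 to 0.70), low cells 29.8 and 42.9 CPM (0.53, 0.34 to 0.71) and high cells 27.4 and 46.4 CPM (0.76, 0.37 to 1.13). Cycling cells had 31.7 and 49.2 CPM (0.63, 0.55 to 0.72) and the other cells 27.0 and 42.5 CPM (0.66, 0.58 to 0.73). Of the 6 states only high cycling cells had an interval that included 0 (0.43, -0.17 to 1.00), with 31 UMIs from 23 mutant cells. By depth, the log2 ratio was 0.82 (0.70 to 0.94) between the shallowest terciles and 0.59 (0.51 to 0.67) between the deepest. These terciles were cut within each library and are not matched, with medians of 16801 control and 13615 mutant UMIs in the shallowest. The part of depth in the ratio was not tested. Mutant cells with and without an Arid1a UMI had 49.2 and 44.5 CPM, both above the 30.7 and 28.6 CPM of the matching control cells. Background shares in the states were near that over all cells, with 23.4% of genes past the fold higher in none, 25.4% in low, 25.2% in high, 24.9% in cycling and 24.2% in the other cells.

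At 5000 UMIs an Ep300 UMI was seen in 12.6% (11.8 to 13.5%) of the control and 20.4% (19.3 to 21.5%) of the mutant cells. On unthinned UMIs the shares were 50.0% and 60.3%, although mutant cells were the shallower ones. Between OC-transcript states no difference was resolved, since both intervals include 0. High over none gave -0.082 (-0.25 to 0.087) in the control and 0.041 (-0.31 to 0.37) in the mutant library. With the cell cycle its level did differ, at 0.23 (0.15 to 0.31) and 0.21 (0.14 to 0.29) for cycling over other cells and G2/M-high over neither at 0.43 (0.34 to 0.52) and 0.38 (0.30 to 0.47). In contrast to Cited2, Ep300 was thus highest in G2/M-high cells, with 34.9 CPM in the control and 53.9 CPM in the mutant library. From the lowest to the highest tercile of interferon-stimulated UMIs, it was higher by 0.18 in each library (0.077 to 0.28 and 0.086 to 0.27). The genes most like it over the 12 points were Dock10 (r = 0.978), a guanine nucleotide exchange factor, Cytip (0.967), a cytohesin-binding protein, and Nipbl (0.959), a cohesin loader. Within the 6 points of each library the r of Dock10 was 0.895 and 0.896.

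Crebbp, the paralog of Ep300, had 47.2 CPM (46.1 to 48.2) and 48.9 CPM (47.7 to 50.1), a log2 ratio of 0.051 (0.0031 to 0.099). This ratio was -0.058 without mitochondrial and ribosomal protein genes in the totals, -0.012 with TMM factors and -0.0031 with median-of-ratios factors, so that no direction can be given. The 2 acetyltransferase genes therefore differed in how they compared between the libraries, at 0.63 against 0.051 with intervals that do not overlap. In high cells Crebbp had 52.1 and 52.0 CPM, and in none cells 46.6 and 48.5 CPM. Cycling over other cells gave 0.13 (0.067 to 0.20) in the control and 0.0019 (-0.072 to 0.076) in the mutant library, a difference of -0.13 (-0.23 to -0.032). Its share of cells with a UMI at 5000 UMIs was 20.2% (19.2 to 21.2%) and 21.7% (20.6 to 22.9%). In both libraries none cells with an Nfatc1 UMI were above those without one, by 0.23 (0.12 to 0.33) and 0.15 (0.036 to 0.25). Its nearest genes over the 12 points were Urm1 (r = 0.916), Sf3b6 (0.895) and Aqr (0.893), the last 2 being splicing factors.

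**Figure D4:**
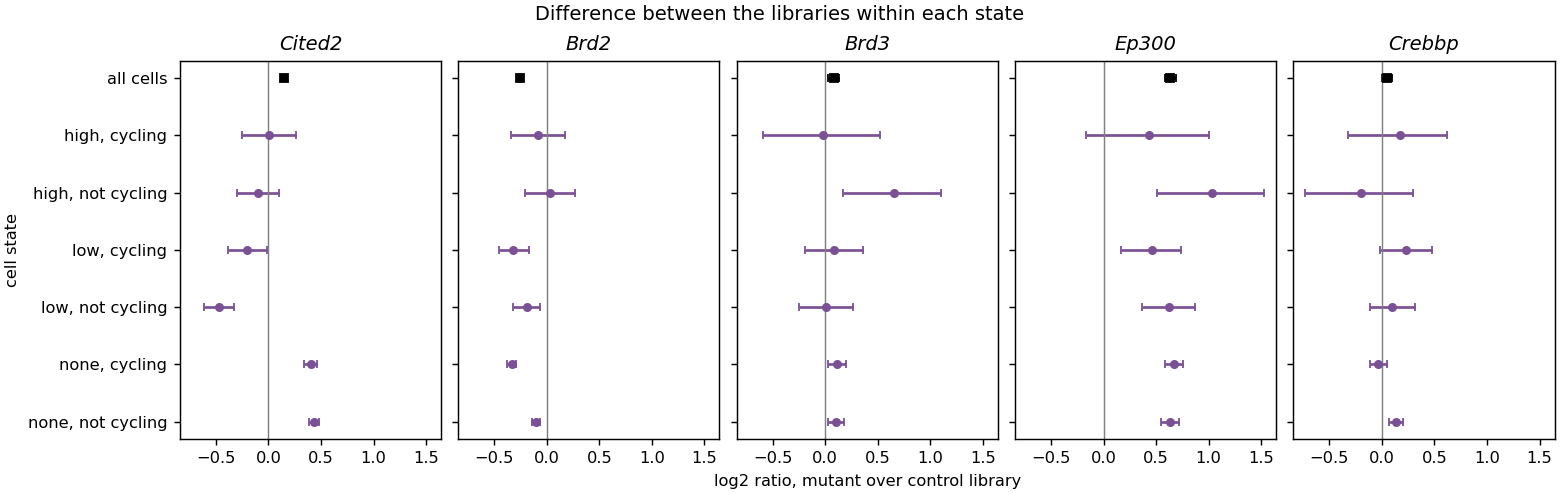
Log2 ratio of mutant over control (x axis, 0 marks equal levels) of each member in all cells (black squares) and in each of the 6 states (purple circles, y axis), with exact 95% intervals for counting error. Ep300 lies to the right of 0 in every state (0.43 to 1.03), and Brd2 is to the left in none and low cells. Cited2 is to the right in none and to the left in low cells, the latter depending on the depth at which states were called.

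Of the BET genes, Brd2 was lower in the mutant library, with 159 CPM (157 to 161) and 133 CPM (131 to 135) over all cells and a log2 ratio of -0.26 (-0.28 to -0.23), below that of all but 22.2% of genes. The difference was larger in cycling cells, which had 177 CPM (174 to 180.2) in control and 138 CPM (135 to 141) in mutant cells, which is -0.36 as a log2 ratio (-0.40 to -0.32), against 145 and 130.3 CPM (-0.15, -0.19 to -0.12) in the other cells. Here 17.7% of genes were past the fold lower in cycling cells, Brd2 being the 1 member among them, and 17.0% in the other cells. Seen from the other side, cycling over other cells was 0.29 (0.25 to 0.32) in the control and 0.084 (0.039 to 0.13) in the mutant library, a difference of -0.20 (-0.26 to -0.15). In neither library was a member past the fold in this contrast, against 13.5% of control and 15.8% of mutant genes. TMM factors turned the mutant ratio to -0.031, so the direction within the mutant library is not settled. G2/M-high cells had 171 and 131 CPM, a log2 ratio of mutant over control of -0.38 (-0.43 to -0.32), and cells high in neither list 149 and 131 CPM (-0.18, -0.22 to -0.15).

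Brd2 was higher in cells with OC transcripts, as Cited2 was in high cells of both libraries. Control cells had 153, 172 and 198 CPM in the none, low and high state, and mutant cells 132, 144 and 196 CPM. High over none was 0.37 (0.31 to 0.44) and 0.57 (0.41 to 0.73), and the mutant over control ratio in high cells was -0.019 (-0.19 to 0.15). The libraries were thus not distinguishable in high cells, but the interval does not exclude a ratio as low as -0.19. In low cells the ratio was -0.26 (-0.35 to -0.16). With 5 or more OC-transcript UMIs Brd2 reached 199 CPM (189 to 210.5) and 222 CPM (184 to 265). A Brd2 UMI was seen at 5000 UMIs in 52.2% (50.9 to 53.5%) of the control and 46.2% (44.8 to 47.5%) of the mutant cells. Depth moved with Brd2 in the control library, at 144 CPM in the shallowest and 167 CPM in the deepest tercile (0.21, 0.16 to 0.26), against 136 and 133 CPM in the mutant library (-0.024, -0.083 to 0.035). The share of cycling cells was 26.7% and 54.3% in the same control terciles and 24.8% and 44.4% in the mutant ones, and its part in the result was not tested. Cstf2 (r = 0.978), an mRNA cleavage factor, Mogs (0.970), a glucosidase of N-glycan trimming, and Nup214 (0.962), a nuclear pore protein, were most like Brd2 over the 12 points.

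Brd3 had 38.3 CPM (37.3 to 39.2) and 40.4 CPM (39.3 to 41.5), a log2 ratio of 0.08 (0.027 to 0.13), which was -0.03 without mitochondrial and ribosomal protein genes in the totals. Its pattern followed S phase. S-high cells had 47.1 CPM (44.5 to 49.9) against 34.9 CPM in cells high in neither list in the control, and 53.6 CPM (50.7 to 56.7) against 37.2 CPM in the mutant library, log2 ratios of 0.44 (0.34 to 0.53) and 0.53 (0.43 to 0.63). G2/M-high cells had 40.0 and 38.5 CPM, log2 ratios over neither of 0.20 (0.11 to 0.28) and 0.053 (-0.043 to 0.15). A level between the other groups was thus resolved only in the control library. Cycling over other cells was 0.26 in both libraries (0.19 to 0.34 and 0.18 to 0.34). In high cells Brd3 had 40.3 CPM (36.7 to 44.2) and 51.4 CPM (40.9 to 63.8), from 82 UMIs in the mutant library, a log2 ratio of 0.35 (-0.0079 to 0.69). This ratio was -0.0057 when states were called on unthinned UMIs. From the lowest to the highest tercile of interferon-stimulated UMIs Brd3 was lower by similar amounts, with log2 ratios of -0.25 (-0.34 to -0.16) and -0.22 (-0.32 to -0.13), in contrast to Ep300. The share of cycling cells was 44.0% and 34.8% in the same control terciles and 37.1% and 30.6% in the mutant ones. Its part in the Brd3 ratios was not tested. Mrpl16 (r = 0.922), a mitochondrial ribosomal protein, Slc4a7 (0.919), a bicarbonate cotransporter, and Pdcl (0.915), a phosducin-like chaperone cofactor, were most like Brd3.

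**Figure D5:**
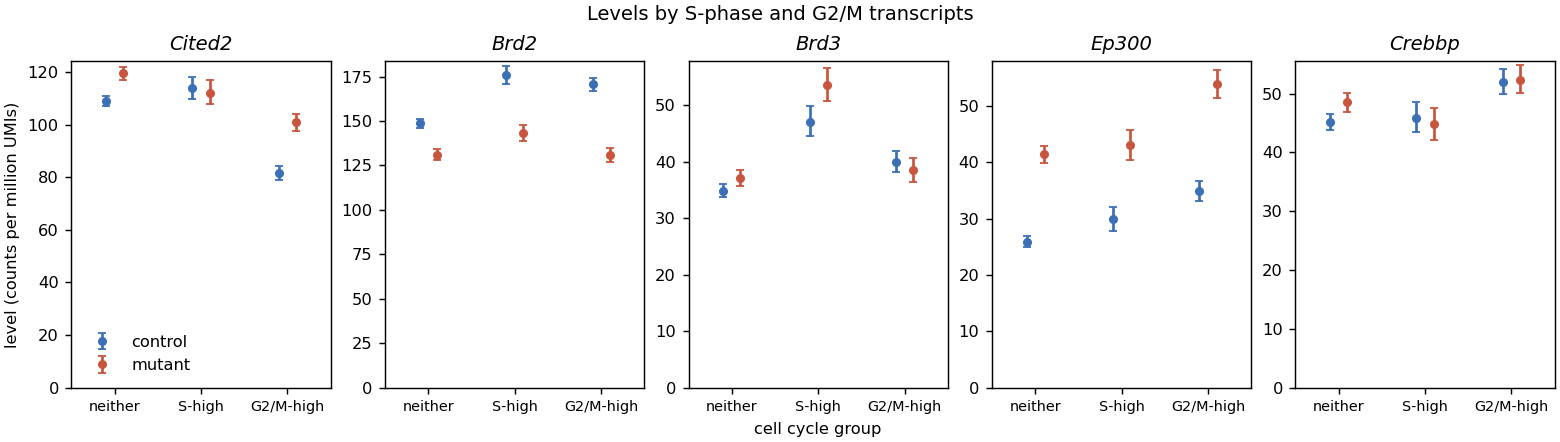
Level of each member (y axis, CPM from 0, scale differs by panel) in cells high in neither cell cycle list, S-high cells and G2/M-high cells (x axis) of each library, with 95% Poisson intervals. Cited2 is lowest in G2/M-high cells (81.7 and 101 CPM), Brd3 is highest in S-high cells (47.1 and 53.6 CPM) and Ep300 is highest in G2/M-high cells (34.9 and 53.9 CPM).

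The genes that work with the members were described by lists, for mutant over control in all cells and among list genes that averaged 20 CPM or more. Of 11 transcription factors known to bind CBP or p300, 6 were past the fold higher and 0 lower, with a median of 0.50 against 0.022 over all genes. Stat2, which is also an interferon-stimulated gene, had 9.90 CPM in control and 53.7 CPM in mutant cells (2.44, 2.36 to 2.52). Hif1a (0.74), Fos (0.63), Ets2 (0.51) and Nfe2l2 (0.50) were also past the fold and were named after their values were seen. Trp53, with 132 and 105 CPM (-0.32, just short of the fold), and E2f1 (-0.021) had the lowest ratios.

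Of 14 HIF-1 target genes, the group whose activation CITED2 is known to restrain, 3 were past the fold higher and 7 lower, with a median of -0.32. Hk2 (0.56) and Egln1 (0.54), a hexokinase and an oxygen-sensing prolyl hydroxylase, were highest. Bhlhe40 (-1.11), a transcriptional repressor, and the glycolytic enzyme gene Eno1, with 398 and 253 CPM (-0.66, -0.67 to -0.64), were lowest. The lower genes besides Bhlhe40 were all glycolytic enzymes, whereas Hk2, also of glycolysis, was higher. The list's members thus did not all go in the same direction. In high over none cells of the control library 11 of 14 were past the fold lower and 2 higher, with a median of -0.40, and in the mutant library 4 of 13 lower and 1 higher, with a median of -0.25. Among all genes compared between these states, 15.9% of the control genes and 15.7% of the mutant genes were lower past the fold, and 22.5% and 19.1% were higher. Any link of these counts to Cited2 was not tested, and hypoxia was not measured.

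Among 7 other acetyltransferase genes 3 were higher and 2 lower past the fold. Ncoa3, with 33.6 and 64.7 CPM (0.95), and Kat2b, with 14.4 and 27.0 CPM (0.91), a paralog of the coactivator Kat2a, were highest, and the N-terminal acetyltransferase genes Naa10 (-0.75) and Naa50 (-0.44) were lowest. Other bromodomain genes had 4 of 16 higher and 0 lower, led by Sp140, with 15.2 and 39.1 CPM (1.37, 1.30 to 1.44), and Brd1 (0.75), a scaffold of histone acetyltransferase complexes. Trim28 (-0.31) and Baz1a (-0.28) were at the low end. Of 16 genes of P-TEFb and elongation, which act downstream of BET proteins, Aff1 (0.95) and Hexim1 (0.34) were higher and Supt6 (-0.32) was past the fold lower. None of 11 deacetylase and corepressor genes was past the fold in either direction, from Hdac2 (-0.29) and Tbl1xr1 (-0.22) to Sirt7 (0.26). These counts stand beside the background of 24.0% higher and 17.5% lower given above.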

How the data were processed

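The 2 libraries, 1 control and 1 mutant, were made with the 10x Genomics 3′ v3.1 kit, and the authors deposited a matrix of UMI counts for each, unnormalized, from Cell Ranger 6.1.0 according to the submitters' processing notes. Whether these counts precede the authors' aggregation of the libraries, and whether strand was used, is not given in the sources used here. The totals were 164004706 UMIs in 6455 control barcodes and 131800059 UMIs in 5865 mutant barcodes. Barcodes under 500 genes or above 10% mitochondrial UMIs (186 and 202) were left out. Gene identifiers matched GENCODE M39 (GRCm39) for 31977 of 32544 genes. Members, gene lists and splits were chosen with earlier results of these data known.

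From the counts, UMIs were summed per gene over the cells of a library or state and divided by their total (CPM, per 1000000 UMIs). Intervals are exact Poisson for levels, exact conditional for ratios, square-and-add for differences of ratios and Clopper-Pearson for shares, all at 95%. They cover counting error only. No test between groups was possible with 1 library each, so no p-value is given, and the share of all genes that averaged 20 CPM or more and lay past the fold of 0.32 (log2) serves as background. Cut-offs for S phase and G2/M were set at the upper 25% of cells of both libraries by UMIs of 20 genes each at 5000 UMIs (above 13 and above 12 UMIs). Cells above both were called G2/M-high, so that S-high held 998 control and 980 mutant cells and G2/M-high 1517 and 1282. Genes named beside the members were those of the lists with the highest and lowest ratios, and those with the highest Pearson r over 12 points. Some genes that this rule names are not reported here.

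No filter for doublets was stated. Doublets simulated from the counts marked 333 control and 275 mutant barcodes, and these stayed in unless stated. Alternatives were other scalings (without mitochondrial and ribosomal protein genes, TMM of edgeR 4.0.16, median of ratios of DESeq2 1.42.0, equal weight per cell), other thinning depths, other thresholds and cell filters. Python 3.11.15, numpy 2.4.6, scipy 1.17.1, pandas 2.3.3, scikit-learn 1.9.0, matplotlib 3.10.9 and R 4.3.3 were used. The code for ratios and their intervals was run on simulated Poisson counts. Such counts hold no spread between cells, so this run does not check the intervals against that spread.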

Additional observations from a re-analysis of the deposited data

Results flagged for a closer look

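Several contrasts of Cited2 went in opposite directions in the control and the mutant library, each with intervals that exclude 0, and with 1 library per group the difference was not tested across replicates. OC-transcript-low over none cells gave log2 ratios of 0.63 (control) and -0.16 (mutant), the latter being 0.29 with states called at 2000 UMIs. Cells with 1 over cells with 0 OC-transcript UMIs gave 0.53 and -0.18. These 2 contrasts overlap, since cells with 1 UMI were 677 of the 915 control and 256 of the 310 mutant low cells. S-high cells over cells high in neither cell cycle list gave 0.064 and -0.091. The deepest over the shallowest tercile of cells gave 0.16 and -0.20. The highest over the lowest tercile of interferon-stimulated UMIs gave -0.54 and 0.076 in all cells, and -0.22 and 0.11 in OC-transcript-none cells, which are most of the same cells.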

How the results depend on the processing

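No paired analysis was possible because each group holds 1 library, and for the same reason no replicate could be left out. The 60 log2 ratios were recomputed under 710 alternatives in all, of which 546 stayed within the counting interval of the ratio reported and 164 left it. The sign changed in 64 of them, over 25 ratios, and 29 of these changes lay beyond the interval. The log2 ratio of mutant over control in all cells moved, in the order without mitochondrial and ribosomal protein genes, TMM and median of ratios, to 0.042, 0.087 and 0.096 for Cited2 (0.15), -0.37, -0.32 and -0.31 for Brd2 (-0.26), -0.03, 0.016 and 0.025 for Brd3 (0.08) and -0.058, -0.012 and -0.0031 for Crebbp (0.051). For Ep300 (0.63) it moved to 0.53 and 0.57 under the first and second of these. Equal weight per cell gave 0.18 for Cited2, -0.21 for Brd2 and 0.71 for Ep300. The cause of these shifts was not tested.

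Cited2 in OC-transcript-high over none cells of the control library (1.60) was 1.70 without mitochondrial and ribosomal protein genes and 1.49 with TMM. With states called at 2000 UMIs, at 10000 UMIs and on unthinned UMIs it was 1.72, 1.41 and 1.08, with high called from 2 or from 5 UMIs 1.36 and 1.77, and from Ctsk alone 1.24. The mutant ratio (1.09) was 1.41, 0.84, 0.35, 0.63, 1.50 and 0.60 in the same order. Low over none (0.63) was 0.87, 0.38 and 0.12 at the 3 depths and 0.53 and 0.77 at the thresholds of 2 and 5 in the control library. In the mutant library (-0.16) it was 0.29 at 2000 UMIs, -0.037 at 10000 UMIs and -0.0028 at the threshold of 5. Cycling over other cells was -0.34 (TMM), -0.38 (median of ratios), -0.16 (10000 UMIs) and -0.047 (unthinned) in the control library (-0.29), and -0.34, -0.32, -0.17 (equal weight) and -0.098 (unthinned) in the mutant library (-0.23). Among ratios past the fold, 3 changes of sign were seen, in mutant over control of Cited2 in low cells (-0.36), at 0.048 with 10000 UMIs and 0.32 unthinned, and of Brd3 in high cells (0.35), at -0.0057 unthinned. Among ratios inside the fold, mutant over control in high cells changed sign to 0.17 for Cited2 (-0.072) with a threshold of 5 UMIs and to 0.28 for Brd2 (-0.019) at 2000 UMIs, and Brd2 in cycling over other mutant cells (0.084) to -0.031 with TMM. A fixed threshold in UMIs can admit cells with a lower share of OC transcripts at greater depth. The part of this in the changes above was not tested. The mutant high state held 57 cells.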
